A study of Rattus norvegicus with 16 samples.

Results

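Fatty acid and triglyceride synthesis in the liver was followed through 32 listed genes, from the enzymes that supply acetyl-CoA and NADPH to those that assemble and export triglyceride. Genes were matched to array probes by RefSeq transcript number and gene symbol. A probe was found for 29 of them, and 27 stood far enough above background to be tested, among 13146 transcripts tested in all. Pgd, Srebf1 and Pnpla3 were matched to no probe, so their levels were not analysed here. Acacb was well above background on 0 of 16 arrays and Mogat1 on 1, in the AhR group, and neither was tested.

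The livers came from male Sprague-Dawley pups 21 days old that were raised by their own dams. Dams were dosed daily from gestation day 0 to postnatal day 20. C dams received corn oil alone, and 0.5M and M dams received organochlorine pesticides, polychlorinated biphenyls and methylmercury together, at 0.5 and 1 mg/kg/day. AhR dams received non-ortho polychlorinated biphenyls, dioxins and furans, which activate the aryl hydrocarbon receptor, at 1.8 ng/kg/day in dioxin toxic equivalents. For 0.5M and M no dose in toxic equivalents was available here. M against AhR is therefore not read as exposure without such agonists against exposure with them. Each group had 4 arrays of RNA pooled from 2 pups, 8 pups in all. The labels do not say which pups were littermates, so arrays of a group may share litters and standard errors may be too small. Each value is the log2 ratio of liver RNA to a common rat reference RNA. The reference was made from rat cell lines, so a ratio below 0 says only that the liver signal lay below the reference signal. It says nothing of the level of one gene against another. Whole liver was used, so fewer hepatocytes and less RNA per hepatocyte cannot be told apart.

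The liver makes fatty acids from carbon left over from carbohydrate. Citrate leaves the mitochondrion and is split to acetyl-CoA, which acetyl-CoA carboxylase and fatty acid synthase turn into palmitate with NADPH from malic enzyme and the pentose phosphate pathway. Desaturases and elongases reshape palmitate, acyltransferases join the acyl chains to glycerol 3-phosphate, and the triglyceride is stored in droplets or loaded on very low density lipoprotein. SREBP-1c, ChREBP and the liver X receptor switch the genes on together after feeding, and the rat pup at weaning is moving from fat-rich milk to carbohydrate-rich chow. Activation of the aryl hydrocarbon receptor by dioxin-like compounds is known to lower hepatic lipogenic transcripts in adult mice.

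Between 7082 and 13824 of 30367 probes per array were well above background on slide 1, and between 13006 and 15686 on slide 2. Each slide held 2 arrays of every group, and the slide was a term of the model. Replicates 1 and 2 of each group lay on slide 1 and replicates 3 and 4 on slide 2. All 8 hepatocyte markers examined were well above background on all 16 arrays. The median of this list stood 0.60 above its level on the median array on M 1 and 0.52 on AhR 1, and between -0.22 and 0.18 on the other arrays. Cyp1a1, the standard target of the aryl hydrocarbon receptor, was above the C mean by 4.58 ± 0.18 (SE) log2 units in M, 3.74 in 0.5M and 2.46 in AhR. On 4 arrays the median of a list of markers of another tissue stood more than 1 log2 unit above its level on the median array. They were C 2 (fat), 0.5M 4 and M 2 (skeletal muscle and fibroblast), and M 1 (exocrine pancreas). The muscle list on M 1 also had a median of 1.14, but with 0 of 5 markers well above background, whereas on M 2 and 0.5M 4 all 5 were. The muscle list, with 5 of 12 markers tested, spanned -0.49 to 0.51 in C, -0.18 to 5.46 in 0.5M, -0.44 to 4.69 in M and -0.51 to 0.78 in AhR. The fat list, with 4 of 9 tested, spanned -0.20 to 1.05 in C, -0.35 to -0.01 in 0.5M, -0.08 to 0.35 in M and -0.27 to 0.24 in AhR. The pancreas list, with 3 of 10 tested, spanned -0.28 to 0.01 in C, -0.16 to -0.01 in 0.5M, 0.01 to 1.07 in M and -0.21 to 0.78 in AhR. Their part in the values below was not tested, and for members given by array a value without these 4 arrays is given too. Without them M keeps only M 3 and M 4, both on slide 2. For M, these values therefore overlap with the slide 2 values and are no separate check on them.

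No member passed an adjusted p of 0.05 (limma, Benjamini-Hochberg over the 13146 transcripts) in any of the 6 comparisons between groups. Of all transcripts, 0.319% passed for M against C, 0.0152% for 0.5M against C and 0.00761% for AhR against C. Between exposed groups, 0.0152% passed for M against 0.5M, 0.266% for M against AhR and 0.0228% for 0.5M against AhR. At an unadjusted p under 0.05, 7 of 27 members differed between M and C, 3 between 0.5M and C and 3 between AhR and C, beside 10.1%, 6.53% and 3.78% of all transcripts. The same count was 4 for M against 0.5M, 7 for M against AhR and 0 for 0.5M against AhR, beside 6.75%, 9.87% and 9.05%. In M, 9 of 27 members lay above the C mean, beside 49.4% of all transcripts, and 18 below it, with a median difference of -0.13 beside -0.00 over all transcripts. That median was -0.03 without C 3, -0.05 without M 1, -0.05 without M 2 and -0.07 without C 2. In 0.5M, 17 lay above it, beside 48.8%, with a median of 0.07, or 0.03 without 0.5M 1 and 0.04 without C 4. In AhR 23 lay above it, beside 50.1%, with a median of 0.09, or 0.03 without C 4, 0.06 without AhR 3 and 0.14 without C 3. Among the 23 are Acaca and Lpin2, which passed the background filter only with their AhR arrays counted. Acaca is also among the 3 members with an unadjusted p under 0.05 for AhR against C. The 3 comparisons share the C arrays, and members are not independent of each other. Precision was limited by the number of arrays: the median standard error of a difference was 0.132 log2 units for members and 0.104 for all transcripts. The pooled spread between arrays of a group was also wider for the members, with a median SD of 0.202 beside 0.149.

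**Figure D1:**
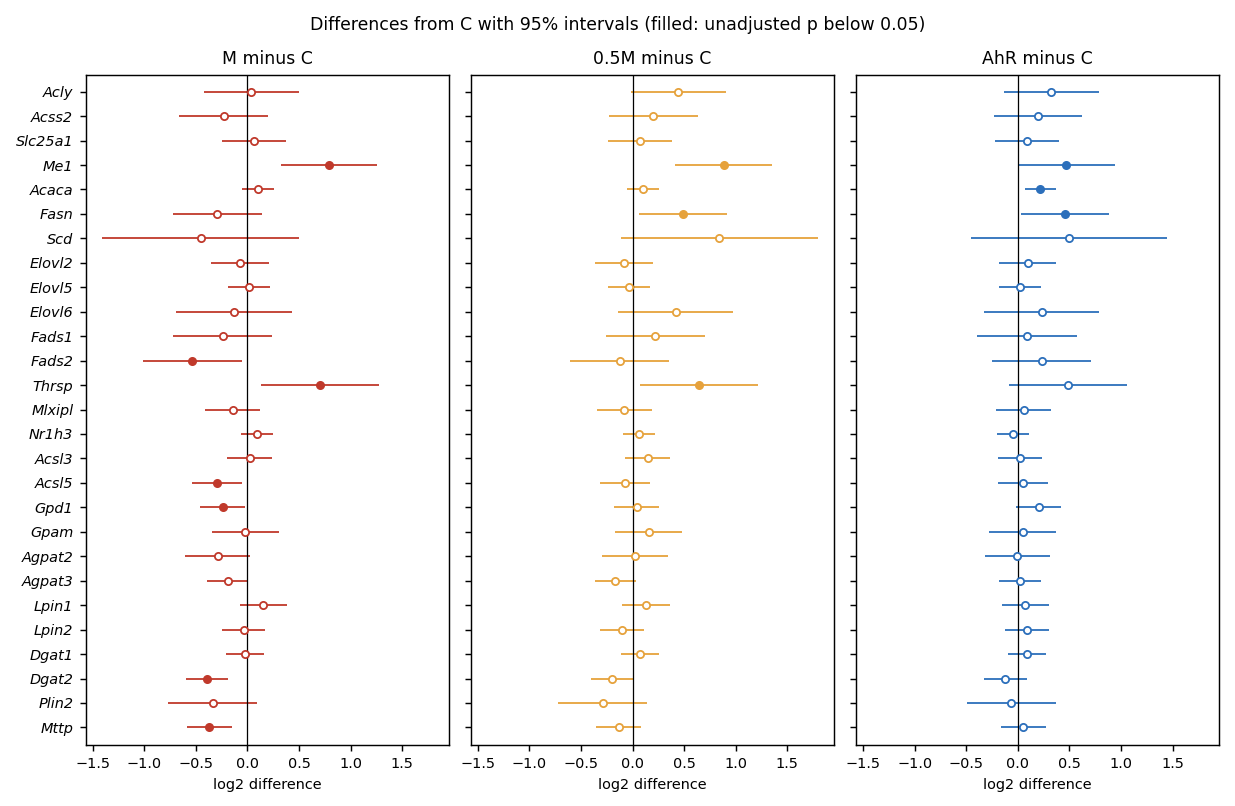
Log2 difference of each tested member from C (x axis) in M, 0.5M and AhR, with 95% intervals from the limma model and members ordered by role; filled points have an unadjusted p under 0.05. Me1 lies to the right of 0 in all 3 panels. In the M panel the intervals of Acsl5, Dgat2, Fads2, Gpd1, Me1, Mttp and Thrsp do not reach 0.

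Promoter sequence from RefSeq (assembly GRCr8, 250 bases before to 50 after the annotated start) was matched for 25 of the 32 genes. There was no entry for Fasn or Elovl6. Those of Acly, Acss2 and Scd are printed because, of the members with an entry, they were among those with the higher correlations with Fasn. Of these only that of Acly passed its permutation test, for Pearson r (adjusted p = 0.0253) and not for rho (0.0728). With group means also subtracted it did not pass. Acly lies at chr10:85963582-85963881 on the minus strand, Acss2 at chr3:164464453-164464752 on the plus strand and Scd at chr1:253231682-253231981 on the minus strand. Each sequence is the strand of the gene, and capitals mark CCAAT boxes on either strand, the motif bound by NF-Y, which works beside SREBP at many lipogenic promoters.
Acly: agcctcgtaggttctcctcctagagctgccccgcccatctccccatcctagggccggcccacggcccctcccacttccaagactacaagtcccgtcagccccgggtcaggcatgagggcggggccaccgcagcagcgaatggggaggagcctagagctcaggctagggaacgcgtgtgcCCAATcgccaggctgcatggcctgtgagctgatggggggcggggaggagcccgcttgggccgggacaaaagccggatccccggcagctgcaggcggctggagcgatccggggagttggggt
Acss2: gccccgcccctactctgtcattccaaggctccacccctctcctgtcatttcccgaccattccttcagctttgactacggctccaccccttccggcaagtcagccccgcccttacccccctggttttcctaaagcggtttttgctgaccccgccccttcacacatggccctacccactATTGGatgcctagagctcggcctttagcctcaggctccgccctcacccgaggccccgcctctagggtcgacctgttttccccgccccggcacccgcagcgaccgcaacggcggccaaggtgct
Scd: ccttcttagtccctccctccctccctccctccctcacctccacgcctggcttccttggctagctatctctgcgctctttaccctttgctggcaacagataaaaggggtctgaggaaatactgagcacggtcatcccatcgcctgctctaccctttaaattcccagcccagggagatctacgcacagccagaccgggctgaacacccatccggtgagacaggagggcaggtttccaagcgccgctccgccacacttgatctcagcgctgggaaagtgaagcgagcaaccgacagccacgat
The CCAAT box lies at -71 from the start in Acly and, on the inverse strand, at -73 in Acss2, and the Scd window holds none. On either strand, CCAAT was found in 16 of the 25 member promoters and in 37.5% of all 33469 promoters. The sterol regulatory element, searched as TCACNCCAC, was found in 0 of 25 and in 1.12% of all. The E-box CACGTG was found in Elovl5 and Plin2, and in 6.42% of all. The core of the xenobiotic response element, searched as TNGCGTG, was found in Slc25a1, Fads1 and Lpin2, and in 4.89% of all. Members were counted by gene, over any window of the gene, and all promoters were counted by window. The shares are therefore not in like units, which can favour the members. These matches describe the letters of the window and are not measured binding.

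Among the genes that supply acetyl-CoA and citrate, none was distinguished from C in any exposed group. Acly encodes ATP citrate lyase, which splits citrate to acetyl-CoA in the cytosol. Its log2 ratio was -1.29, -0.87, -0.39 and -1.14 in C, -1.06, 0.19, -0.48 and -0.55 in 0.5M, -0.65, -0.94, -1.09 and -0.85 in M and -0.51, -0.64, -0.57 and -0.67 in AhR. C arrays were spread widely, AhR arrays lay close together within the C range, and 0.5M 2 was the highest of all 16. The difference from C was 0.44 (95% interval -0.02 to 0.90) in 0.5M, 0.32 (-0.14 to 0.78) in AhR and 0.04 (-0.42 to 0.50) in M. For 0.5M it was 0.20 without 0.5M 2, and 0.52 without the 4 arrays with transcripts of other tissues. For AhR it was 0.19 without C 1 and 0.52 without C 3. Acss2, which makes acetyl-CoA from acetate, stood at 0.20 ± 0.20 above C in 0.5M, at 0.20 ± 0.20 above C in AhR and at -0.23 ± 0.20 in M. Slc25a1, the mitochondrial citrate carrier, stood between 0.07 and 0.09 above C in the 3 exposed groups, each with a standard error of 0.15.

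Me1, the cytosolic malic enzyme that supplies NADPH for lipogenesis, had the largest difference from C of any member in M and in 0.5M. Its ratio was -1.04, -0.36, -0.99 and -1.10 in C, -0.53, 0.55, -0.03 and 0.04 in 0.5M, 0.07, -0.30, -0.31 and 0.23 in M and -0.08, -0.33, -0.89 and -0.31 in AhR. All M arrays lay above all C arrays, as did 3 of 4 arrays in 0.5M and in AhR. C 2 stood apart from the other C arrays and was the only one within the range of 0.5M, and it was also the array with fat transcripts. The difference was 0.79 ± 0.22 (SE, 1.73-fold, adjusted p = 0.184) in M, 0.88 ± 0.22 (1.84-fold, adjusted p = 0.578) in 0.5M and 0.47 ± 0.22 (1.39-fold, adjusted p = 1.00) in AhR. Within slide 1 and slide 2 it was 0.58 and 1.00 in M, and 0.71 and 1.05 in 0.5M. Without the 4 arrays with transcripts of other tissues it was 1.06 in M and 0.98 in 0.5M. A second Me1 probe gave 0.74, 0.66 and 0.33 in M, 0.5M and AhR. The difference between M and 0.5M was -0.09 with a 95% interval of -0.55 to 0.38.

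Fasn, the multienzyme that builds palmitate from malonyl-CoA, was lowest in M and higher in 0.5M and AhR. Its ratio was -1.94, -1.17, -1.06 and -1.49 in C, -1.26, -0.48, -1.22 and -0.76 in 0.5M, -1.85, -1.47, -1.86 and -1.65 in M and -1.29, -0.74, -0.80 and -1.0 in AhR. The M arrays lay within the C range and below every 0.5M and every AhR array. The difference from C was -0.29 ± 0.20 in M, 0.49 ± 0.20 (adjusted p = 0.738) in 0.5M and 0.46 ± 0.20 (adjusted p = 1.00) in AhR. M stood at -0.78 ± 0.20 (1.71-fold lower, adjusted p = 0.454) against 0.5M and at -0.75 ± 0.20 (1.68-fold lower, adjusted p = 0.192) against AhR. Within slides 1 and 2 these were -0.79 and -0.77 against 0.5M, and -0.64 and -0.86 against AhR. With C 1, the lowest array, left out, the difference from C in 0.5M was 0.30 and in AhR 0.27, and with 0.5M 2 left out it was 0.31 in 0.5M. Without the 4 arrays with transcripts of other tissues, M stood at -0.86 against 0.5M and -0.87 against AhR. Over the doses of the mixture, Fasn in 0.5M stood 0.63 ± 0.17 above the mean of C and M (unadjusted p = 0.0024, adjusted p = 0.900), beside 0.00761% of all transcripts past the threshold for this contrast. In the F-test over the 4 groups, where 0.175% of transcripts passed, Fasn had the lowest adjusted p of the members, 0.278. Acaca, the acetyl-CoA carboxylase of the lipogenic pathway, was well above background on only 1 C, 1 0.5M, 0 M and 2 AhR arrays, all on slide 2. Its values thus describe dim spots. Acaca met the minimum of 4 arrays only with its AhR arrays counted, and AhR was its highest group. The filter therefore favoured a higher AhR value, and the difference in AhR is no support for a rise. It stood at 0.22 ± 0.07 above C in AhR (adjusted p = 1.00), and the other differences from C were 0.10 in both 0.5M and M.

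**Figure D2:**
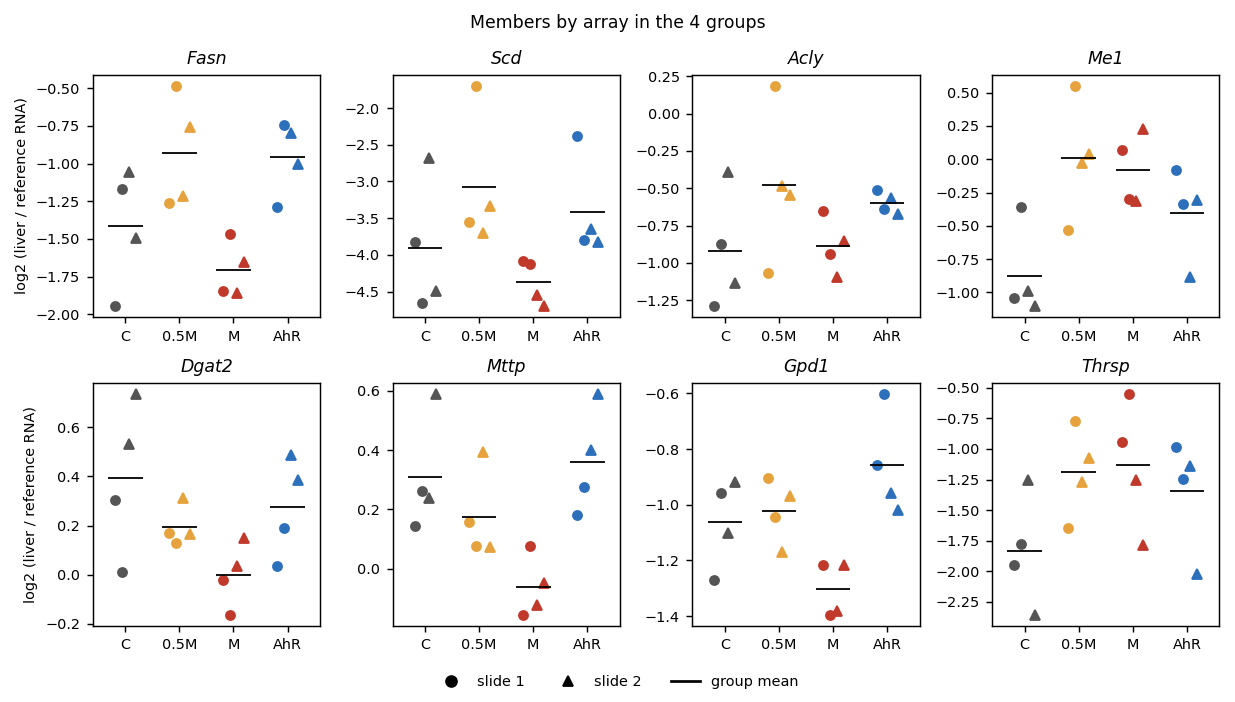
Log2 ratio of liver to reference RNA (y axis, own scale in each panel) for 8 members on the 16 arrays, by group; circles are slide 1, triangles slide 2 and lines the group means. The M arrays lie below all 0.5M and AhR arrays for Fasn, Scd and Gpd1, and above all C arrays for Me1.

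Of the desaturases and elongases, Scd, Elovl6, Fads1 and Fads2 varied between arrays of a group more than most transcripts, and Elovl5 (residual SD 0.131) did not. Scd, the delta-9 desaturase that makes oleate, had a residual SD of 0.751, at the 99.6th percentile of all transcripts. Its ratio was -3.82, -4.65, -2.68 and -4.49 in C, -3.55, -1.69, -3.70 and -3.34 in 0.5M, -4.08, -4.13, -4.55 and -4.70 in M and -2.39, -3.80, -3.65 and -3.83 in AhR. The 4 M arrays sat together below all arrays of 0.5M and AhR, while C arrays spanned -4.65 to -2.68 and overlapped every group. M stood at -1.30 ± 0.45 (2.45-fold lower, adjusted p = 0.575) against 0.5M, and at -0.86 with 0.5M 2 left out. M stood at -0.95 ± 0.45 (adjusted p = 0.508) against AhR. Against C, the slides gave 0.13 and -1.04 in M and 1.62 and 0.07 in 0.5M. Over both slides, the difference from C was -0.45 ± 0.45 in M, 0.84 ± 0.45 in 0.5M and 0.49 ± 0.45 in AhR. Leaving out 0.5M 2 gave 0.41 for 0.5M, leaving out C 2 gave 0.51 and leaving out C 3 gave 1.35. For M, leaving out C 2 gave -0.79 and leaving out C 3 gave 0.06. Without the 4 arrays with transcripts of other tissues, M stood at -1.30 against 0.5M, -0.95 against AhR and -0.78 against C.

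Fads2, the delta-6 desaturase of polyunsaturated fatty acid synthesis, had a ratio of -0.16, -0.16, 0.26 and -0.47 in C, -0.76, 0.15, 0.06 and -0.49 in 0.5M, -0.55, -1.07, -0.22 and -0.82 in M and -0.20, -0.01, 0.64 and -0.03 in AhR. Every M array lay below every AhR array, and 3 of 4 lay below every C array. M stood at -0.76 ± 0.22 (1.70-fold lower, adjusted p = 0.244) against AhR and at -0.53 ± 0.22 (adjusted p = 0.424) against C, and at -0.77 and -0.50 without the 4 arrays with transcripts of other tissues. Fads1, the delta-5 desaturase, stood at -0.24 ± 0.23 in M, 0.22 ± 0.23 in 0.5M and 0.09 ± 0.23 in AhR against C. Elovl6, which lengthens palmitate to stearate, stood at 0.42 ± 0.26 above C in 0.5M, 0.23 in AhR and -0.13 in M. The value in 0.5M was 0.21 without C 1, 0.23 without C 4, 0.23 without 0.5M 2 and 0.68 without C 3. A second, dimmer Elovl6 probe gave 0.03, 0.05 and -0.08 for the same differences, so the 2 probes disagree on the size in 0.5M. Elovl2 and Elovl5, which lengthen polyunsaturated fatty acids, differed from C by at most 0.09 in size in any group mean. A second Elovl2 probe gave -0.28 in M, -0.30 in 0.5M and 0.12 in AhR, so the probes disagree on the size in M and 0.5M. For Elovl2 the slides gave opposite directions: 0.5M stood 0.25 above C on slide 1 and at -0.41 on slide 2. The difference between the slides in M against 0.5M had an unadjusted limma p of 2.5e-04 and an adjusted p of 0.817. Beside it, 0% of all transcripts passed the threshold for that contrast, and 5.95% had an unadjusted p under 0.05.

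Of the regulators, Thrsp differed most from C. It encodes Spot 14, a small protein of lipogenic tissues that responds to thyroid hormone and carbohydrate. Its ratio was -1.95, -1.78, -1.25 and -2.36 in C, -1.65, -0.77, -1.27 and -1.08 in 0.5M, -0.95, -0.55, -1.25 and -1.78 in M and -0.98, -1.25, -1.14 and -2.02 in AhR. C 4 was the lowest of all 16, and each exposed group overlapped C through at least 1 array. The difference from C was 0.70 ± 0.27 (1.62-fold, adjusted p = 0.365) in M, 0.64 ± 0.27 (adjusted p = 0.738) in 0.5M and 0.49 ± 0.27 in AhR. In M it was 1.11 on slide 1 and 0.29 on slide 2, and 0.39 without the 4 arrays with transcripts of other tissues. Mlxipl, which encodes ChREBP, stood at -0.14 ± 0.13 in M, -0.08 in 0.5M and 0.06 in AhR. Nr1h3, the liver X receptor alpha, stood at 0.09 ± 0.07 in M, 0.06 in 0.5M and -0.05 in AhR.

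Acsl5 and Acsl3 encode enzymes that activate fatty acids to acyl-CoA. Acsl5 had a ratio of 0.06, 0.04, 0.37 and 0.05 in C, 0.02, 0.30, 0.18 and -0.28 in 0.5M, -0.10, -0.28, -0.18 and -0.11 in M and 0.24, 0.25, 0.20 and 0.03 in AhR. All 4 M arrays lay below every C array and every AhR array, and 0.5M spanned nearly the whole range. M stood at -0.30 ± 0.11 (1.23-fold lower, adjusted p = 0.367) against C, or -0.20 without C 3, and at -0.35 ± 0.11 (adjusted p = 0.299) against AhR. Without the 4 arrays with transcripts of other tissues these were -0.30 and -0.33. Acsl3 stood at 0.14 ± 0.10 above C in 0.5M and at 0.02 in M and in AhR.

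In triglyceride assembly, Dgat2 had the smallest p of all members for M against C. The enzyme joins the last acyl chain to diacylglycerol. Its ratio was 0.30, 0.01, 0.53 and 0.73 in C, 0.17, 0.13, 0.31 and 0.16 in 0.5M, -0.02, -0.16, 0.04 and 0.15 in M and 0.03, 0.19, 0.49 and 0.38 in AhR. C 2 lay among the M arrays, and the other C arrays lay above all of them. M stood at -0.39 ± 0.10 (1.31-fold lower, unadjusted p = 9.4e-04, adjusted p = 0.120) against C, 0.5M at -0.20 ± 0.10 and AhR at -0.12 ± 0.10. The value for M was -0.25 on slide 1, -0.54 on slide 2 and -0.52 without the 4 arrays with transcripts of other tissues. With C 2 alone left out it was -0.48 with an adjusted p of 0.0387. With C 4 alone left out it was -0.32, and over all omissions of a single array the adjusted limma p reached 0.377. Dgat1, the other diacylglycerol acyltransferase, differed from C by at most 0.09 in size, in AhR.

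Gpd1 makes glycerol 3-phosphate, the backbone of triglyceride. Its ratio was -1.27, -0.96, -1.10 and -0.92 in C, -0.90, -1.05, -1.17 and -0.97 in 0.5M, -1.22, -1.39, -1.38 and -1.21 in M and -0.86, -0.60, -0.96 and -1.02 in AhR. The M arrays lay below all of 0.5M and AhR but overlapped C through C 1. M stood at -0.44 ± 0.10 (1.36-fold lower, adjusted p = 0.112) against AhR, the lowest adjusted p of any member in any of the 6 comparisons. M stood at -0.28 ± 0.10 (adjusted p = 0.606) against 0.5M and at -0.24 ± 0.10 (adjusted p = 0.433) against C. Without the 4 arrays with transcripts of other tissues it stood at -0.39 (adjusted p = 0.408) against AhR and -0.20 against 0.5M. Among the acyltransferases of the earlier steps, Agpat2 stood at -0.29 ± 0.15 and Agpat3 at -0.19 ± 0.09 in M against C, Agpat3 at -0.17 in 0.5M and Gpam at 0.15 ± 0.15 in 0.5M. Agpat2 in M was -0.04 on slide 1 and -0.54 on slide 2, -0.44 without C 1 and -0.20 without M 4. A second Agpat3 probe gave -0.03 and -0.07 for M and 0.5M. The lipins Lpin1 and Lpin2, phosphatidate phosphatases, were well above background on 1 or 2 arrays of each group, all on slide 2. Their slide 1 values thus describe dim spots. Both differed from C by at most 0.16 in size.

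Mttp, the microsomal protein that loads triglyceride on apolipoprotein B, was lower in M than in C on every array. Its ratio was 0.14, 0.26, 0.24 and 0.59 in C, 0.16, 0.08, 0.39 and 0.07 in 0.5M, -0.16, 0.08, -0.12 and -0.05 in M and 0.18, 0.28, 0.40 and 0.59 in AhR. The M arrays lay below all of C and AhR, and 0.5M overlapped all other groups. M stood at -0.37 ± 0.10 (1.29-fold lower, adjusted p = 0.184) against C and at -0.42 ± 0.10 (1.34-fold lower, adjusted p = 0.140) against AhR. Without M 2 and 0.5M 4, a choice made after seeing the data, the difference from AhR was -0.51 with an adjusted p of 0.043. Against C it was -0.24 on slide 1, -0.50 on slide 2 and -0.50 without the 4 arrays with transcripts of other tissues. With single arrays left out, the difference from C ranged from -0.45 to -0.29, with an adjusted limma p of 0.0838 to 0.447. Plin2, the coat protein of hepatic droplets, stood at -0.34 ± 0.20 in M, -0.29 ± 0.20 in 0.5M and -0.06 ± 0.20 in AhR. On slides 1 and 2 it was -0.02 and -0.65 in M, and -0.01 and -0.58 in 0.5M. Without C 1 it was -0.55 in M and -0.50 in 0.5M, and in 0.5M it was -0.19 without 0.5M 1, -0.47 without 0.5M 2 and -0.10 without the 4 arrays with transcripts of other tissues.

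M against AhR had the most members whose groups did not overlap, 7, all lower in M. Of 27, 22 were lower in M and 5 higher, beside 49% of all transcripts higher, with a median of -0.22 beside -0.00 for all transcripts. In Acsl5, Acss2, Fads2, Fasn, Gpd1, Mttp and Scd, 7 of 27, every M array lay below every AhR array, while 2.24% of all transcripts did so. No member had every M array above. Some of the 7 separated narrowly: the highest M array and lowest AhR array were -0.036 and -0.029 for Acss2, and -0.215 and -0.204 for Fads2. For M against 0.5M, Acsl3, Fasn, Gpd1 and Scd, 4 of 27, did not overlap and were lower in M, beside 1.4% of all transcripts. For Acsl3 the highest M array was 0.104 and the lowest 0.5M array 0.108, with a difference of -0.12 ± 0.10. Against C, M was wholly lower for Acsl5 and Mttp, beside 2.07%, and wholly higher for Me1, beside 2.12%. No member separated 0.5M or AhR from C, where 1.38% and 0.981% of all transcripts lay wholly above and 1.67% and 1.02% wholly below. None separated 0.5M from AhR, where 1.9% of all transcripts lay wholly above and 3.11% wholly below. M 1 carried pancreas transcripts and M 2 muscle transcripts. Without the 4 arrays with transcripts of other tissues, M kept 2 arrays, both on slide 2. Of the members, 10 then did not overlap with AhR and were lower, beside 8.31% of all transcripts. Without M 2 and 0.5M 4 alone it was 8 members beside 3.26%. With each array centred on its median in place of loess it was 0 members beside 0.312%.

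**Figure D3:**
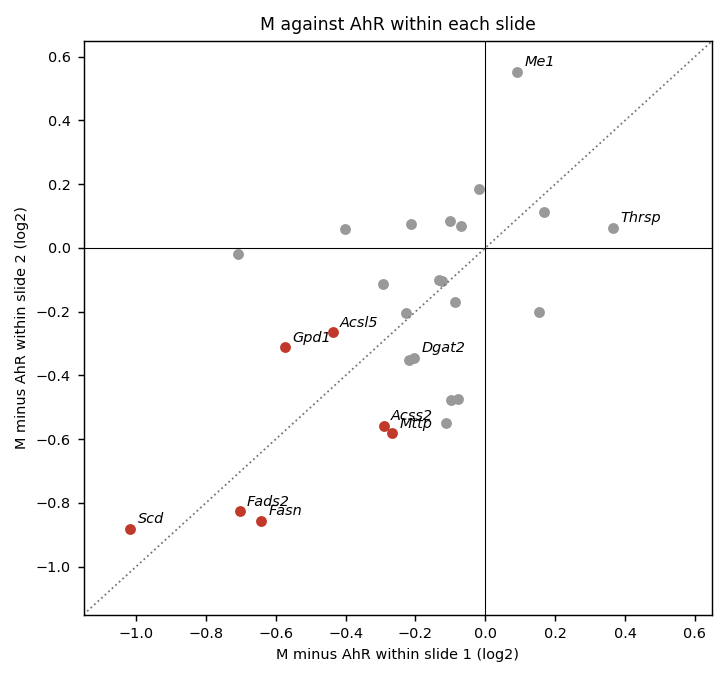
Log2 difference of M from AhR for the 27 members within slide 1 (x axis) and within slide 2 (y axis), with 2 arrays a group on each slide and a dotted line where both are equal; red points are the 7 members whose M arrays all lay below all AhR arrays. The 7 lie at the lower left, which the way they were chosen fixes, and Me1 and Thrsp lie on the upper right.

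The direction in M against AhR was the same within both slides for 21 of the 27 members, beside 53.8% of all transcripts, with medians of -0.20 on each slide. It was the same for 20 members in M against C (54.3% of all transcripts), 18 in 0.5M against C (57.9%) and 13 in AhR against C (50.6%). For M against 0.5M it was the same for 16 (50.4%) and for 0.5M against AhR for 16 (60.2%). Between the slides 2 members differed past the threshold, beside 8.01% of all transcripts. Agpat3 stood 0.36 ± 0.07 (adjusted p = 0.00924) and Dgat2 0.27 ± 0.07 (adjusted p = 0.0290) higher on slide 2 than on slide 1. The slides hold different pups, so slide and pups cannot be told apart.

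The variation of each member from array to array was set against that of Fasn. With each slide's mean subtracted, the correlation with Fasn over the 16 arrays was highest for Elovl6 (r = 0.77, permutation p = 0.00149; rho = 0.70, permutation p = 0.00521). Acly followed (r = 0.74, permutation p = 0.00195; rho = 0.66, permutation p = 0.00840). Over the 26 correlations computed, their adjusted p was 0.0253 for r, and 0.0677 and 0.0728 for rho. Without the 2 arrays farthest from the median of Fasn, 0.5M 2 and C 1, r was 0.62 for Elovl6 and 0.53 for Acly. On slides 1 and 2 it was 0.98 and 0.43 for Elovl6, and 0.72 and 0.78 for Acly. Gpd1 (0.65), Scd (0.61) and Acss2 (0.59) came next. The median r over members was 0.37, beside 0.00 over all other transcripts, and 10 of 26 members lay above 0.45, the 95th percentile of all transcripts. Me1 (0.23), Dgat2 (0.20) and Nr1h3 (-0.23) were among the members below that percentile. The arrays share groups, and with group means also subtracted no member passed. 0.5M 2 was the highest of 16 arrays for 6 members, and C 4 the lowest for 6.

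**Figure D4:**
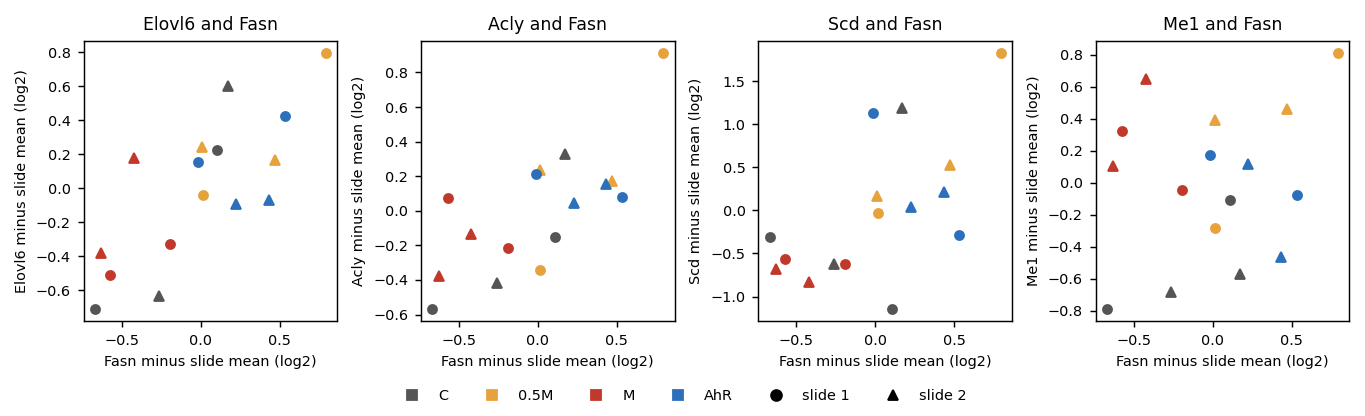
Each panel sets a member (y axis) against Fasn (x axis) on the 16 arrays, both as log2 ratio minus the slide mean; colours are groups, circles slide 1 and triangles slide 2. The correlation passed for Elovl6 (r = 0.77) and Acly (0.74) and not for Scd (0.61) or Me1 (0.23), and none passed with group means also subtracted; 0.5M 2 lies at the far right of each panel.

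Other genes of the pathway were counted from 5 further lists, with 48 of 64 genes tested, and none passed the threshold against C in any group. Scap, which escorts SREBP to the Golgi for its activation, passed for M against AhR. It was the 1 of 10 tested controllers of SREBP-1, liver X receptor and ChREBP to do so, beside 0.266% of all transcripts. Its ratio was -0.07, 0.20, 0.29 and 0.11 in C, 0.04, 0.08, 0.08 and 0.05 in 0.5M, -0.06, -0.52, -0.12 and -0.08 in M and 0.32, 0.54, 0.22 and 0.52 in AhR. Every M array lay below every 0.5M and AhR array, with M 2, an array with muscle transcripts, the lowest. M stood at -0.60 ± 0.11 (1.51-fold lower, adjusted p = 0.0300) against AhR and at -0.33 ± 0.11 (adjusted p = 0.267) against C. Without M 2 and 0.5M 4 the difference from AhR was -0.49 (adjusted p = 0.0754). Without the 4 arrays with transcripts of other tissues it was -0.53 (adjusted p = 0.190). No gene passed for M against AhR among 13 further genes of fatty acid synthesis, 7 of triglyceride synthesis, 7 of droplets and lipolysis and 11 of lipoprotein assembly and fatty acid uptake. The smallest p against C were those of Nr0b2, the small heterodimer partner that restrains bile acid synthesis, at 0.95 ± 0.26 (adjusted p = 0.190) in M and 0.68 (adjusted p = 1.00) in AhR. Hepatic lipase, Lipc, stood at -0.32 ± 0.09 (adjusted p = 0.190) in M. The fatty acid transporter Slc27a2 stood at -0.27 ± 0.10 in 0.5M, and Pnpla2, the triglyceride lipase of droplets, at -0.23 ± 0.10 in 0.5M and -0.26 ± 0.10 in AhR.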

How the data were processed

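Liver RNA (Cy5) and a universal rat reference RNA (Cy3) were hybridised to 16 arrays, with no dye swap. The deposited scan files, written by Agilent Feature Extraction 10.7.3.1 per the file headers, give median signal and background intensity for 62976 spots; the plan did not fix mean or median. Per the file headers, LogRatio is a log10 value. The spot marks (unit other) are deposited as 0 or 1. A value table on the log2 scale was deposited too. Its columns correlated at 0.977 to 0.998 with their own scans and had medians of -0.0093 to 0.0125, and its steps are not given in the sources used here.

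Signals were corrected with normexp (offset 50) and loess within arrays in limma 3.58.1 (R 4.3.3, with the data.table package, version 1.17.8). Non-uniform and population-outlier spots were dropped, and spots of a probe averaged. Probes well above background on at least 4 of 16 arrays were kept: 14524 of 30367, less 12 with missing values. Symbols came from RefSeq accessions (18004 probes matched, 12363 not), and the brightest probe of a gene was used. The model had group and slide terms. Tests were two-sided. The correlations with Fasn used 100000 permutations of arrays within slides.

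The genes, lists and rule for naming (all members by role; of the other lists, those past the threshold, else the 2 with the smallest p against C) were chosen with earlier results of these data known. A liver X receptor motif was planned but not searched. Alternatives changed the normalization, background, filter, probe choice, model, arrays used and source of the values. The replicate numbers did not pair the arrays: with slides removed, 4 of 24 pairs correlated above 0.1.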

Additional observations from a re-analysis of the deposited data

Results flagged for a closer look

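In 4 of 108 sets of 4 arrays (27 members in 4 groups), 1 array stood apart from the rest by more than Dixon's 95% critical value. Chance alone gives about 5% of sets. Me1 in C 2 was -0.36, with the nearest other C array at -0.99, and C 2 is the array with fat transcripts. Scd in AhR 1 was -2.39, with the nearest at -3.65. C 3 stood apart for the other two, with Mlxipl at -0.36 against -0.08 and Acsl5 at 0.37 against 0.06.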

How the results depend on the processing

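The count of members past the threshold was 0, as reported, in 140 of 144 alternative fits. For M against C it was 1 without C replicate 2 (Dgat2, adjusted p = 0.0387), and leaving out single replicates gave 0 to 1. For M against AhR it was 1 with the replicate block in place of the slide (Fasn, adjusted p = 0.0456), 1 without M 2 and 0.5M 4 (Mttp at -0.51, adjusted p = 0.043; chosen after seeing the data) and 1 with array weights (Mttp at -0.49, adjusted p = 0.0387). The block changed no other call on members. The median of members stayed within 1 SD between arrays in 141 of 144, and was -0.26 for M against C and -0.24 for M against 0.5M with median centring in place of loess, and -0.33 for M against AhR with the scanner software's LogRatio. Median centring moved the median of all transcripts by at most -0.09, and left 0 members with M wholly below AhR, beside 0.312% of all transcripts. The LogRatio gave 10 members, beside 3.32%, and the values deposited by the authors gave 8, beside 2.39%. Transcripts past the threshold for M against C ranged from 1 with median centring to 67 with array weights. The number of correlations with Fasn that passed was 0, in place of 2, with group means subtracted. Scap in M against AhR lost its call with the replicate block (adjusted p = 0.0627), in the authors' table (0.0527) and with some single replicates left out (up to 0.143). The call was also lost with median centring (adjusted p = 0.9999), with the LogRatio (0.0943) and with only the 2 groups compared (0.176). On slide 1 alone the adjusted p was 0.825, and on slide 2 alone 0.306. The cause was not tested. Dim spots limit Acaca, Lpin1 and Lpin2.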
